A study of Ctenopharyngodon idella with 6 samples.

Results

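The let-7 family was examined in small RNA of plasma exosomes from large and small grass carp (Ctenopharyngodon idella). Its members were every known miRNA entry named let-7, miR-98 or miR-352 under any species name, which gave 111 of the 2925 known entries. Of these, 104 are named let-7, 5 miR-98 and 2 miR-352. All fish were 10 months old, came from 1 high-density pond population after 9 months of culture, and received no treatment or genetic change. Each of the 3 large fish libraries (L1, L2 and L3) held plasma pooled from 2 of the largest fish of a random catch, and each of the 3 small fish libraries (S1, S2 and S3) held plasma pooled from 5 of the smallest. Pool size and fish size went together in every library and cannot be told apart, and individual fish were not measured. The shallowest library was L1, with 5272418 counts in total, and the deepest S2, with 11524535. An entry at 0 can therefore be as high as 0.569 CPM in L1 or 0.260 CPM in S2, which allows for counting error only. Values are CPM, the counts of an entry per 1000000 miRNA counts of its library.

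The let-7 miRNA was among the first miRNAs found, in the nematode Caenorhabditis elegans, and its mature sequence is shared by worms, fish and mammals. Its precursor is cut into a guide strand (5p), which is loaded into Argonaute, and a passenger strand (3p), which is mostly degraded. Guides pair with target mRNAs through the seed, bases 2 to 8, and all family members with the same seed can share targets such as the RNA-binding protein Lin28, which in turn blocks let-7 maturation. In vertebrates let-7 is known for high levels in differentiated tissue, and in mice the Lin28 and let-7 pair affects body size and glucose metabolism.

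The guide strands differ from let-7a by at most 4 bases, so they are shown first, as the comparison of their values turns on these letters. Each is given 5′ to 3′ as the deposited table writes it, as DNA letters, with the seed in capitals.
let-7a: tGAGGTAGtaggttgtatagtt
let-7b: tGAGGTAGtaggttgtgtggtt
let-7c: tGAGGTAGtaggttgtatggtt
let-7d: tGAGGTAGttggttgtatggtt
let-7e: tGAGGTAGtagattgaatagtt
let-7f: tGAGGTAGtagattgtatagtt
let-7g: tGAGGTAGtagtttgtatagtt
let-7h: tGAGGTAGtaagttgtgttgtt
let-7i: tGAGGTAGtagtttgtgctgtt
let-7j: tGAGGTAGttgtttgtacagtt
miR-98: tGAGGTAGtaagttgtattgtt
Counted from 1 at the 5′ end, with the base of let-7a first, let-7c differs by A19G, let-7f by G12A and let-7g by G12T. The form let-7b carries A17G and A19G, let-7d carries A10T and A19G, let-7e carries G12A and T16A, and miR-98 carries G11A and A19T. The most distant are let-7h (G11A, A17G and A19T), let-7j (A10T, G12T and T18C) and let-7i (G12T, A17G, T18C and A19T).

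In the table each sequence stands once, under the name of 1 species. The let-7a sequence is listed under the nematode name cel-let-7-5p, the fish let-7e sequence under the chicken name gga-let-7k-5p, and 4 entries carry a zebrafish name. The forms above were therefore taken by sequence, and a letter in a species name need not be the letter of the carp gene. The 111 members held 111 distinct sequences from 44 species prefixes, but 78 distinct sets of values, since 1 read can be counted under several names. There were 63 guide entries (49 sets of values), of which 59 carry the seed GAGGTAG at bases 2 to 8, and 45 passenger entries (26 sets). A further 3 entries were assigned no arm, as their names state none and they lack the exact bases GAGGTAG near the start.

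All 11 guide forms had listed values in all 6 libraries, which spanned from let-7j to let-7f. As a read can be counted under several names, a listed value does not by itself show that a form is present. The order given here is therefore an order of listed values. In all libraries let-7f was the highest. In the large fish libraries, in the order L1 to L3, it was listed at 13200.2, 12200.1 and 12245 CPM. In the small fish libraries, from S1 to S3, it was listed at 8769, 10418 and 10339 CPM, and later values follow the same order. The 3 large fish libraries thus lay above the 3 small fish libraries without overlap. Next was let-7c, at 9155, 6806 and 10594 CPM in the large fish and 7894, 8534 and 9005 CPM in the small fish. The form let-7e was listed at 9316, 8701 and 7758 CPM in the large fish and 5634, 6849 and 6843 CPM in the small fish, again without overlap. These 2 did not keep their order, since let-7c lay above let-7e in 4 of 6 libraries and below it in L1 and L2.

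The middle of the order was let-7a, let-7b and let-7g. The let-7a sequence was listed at 5600.1, 5017 and 5977 CPM in the large fish and 4449, 4965 and 5066 CPM in the small fish, and let-7b at 5425, 3349.7 and 6464 CPM against 4728, 4787 and 5387 CPM. These neighbours could not be ordered, with let-7a above let-7b in 3 of 6 libraries, and let-7b lay above let-7g in 5 of 6. The let-7g sequence was listed at 4774, 4347 and 5233 CPM in the large fish and 3738, 4254 and 4240.1 CPM in the small fish. The listed let-7g values of all 3 large fish pools were above those of the small fish pools, while let-7a and let-7b overlapped. Whether reads of let-7g itself differed cannot be told, as reads of let-7a may be counted under its name.

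Lower levels were found for let-7d and let-7i. The form let-7d was listed at 1450.2, 1013 and 1572 CPM in the large fish and at 1603, 1670.0 and 1914 CPM in the small fish, so that here every large fish library lay below every small fish library. Relative to its mean, let-7i had the widest spread of the 11 forms among the large fish pools, at 899, 1289 and 517 CPM in the large fish and 703, 596 and 756 CPM in the small fish. L2 held the highest and L3 the lowest let-7i of all libraries, and in L2 alone let-7i exceeded let-7d. The 3 rarest forms kept their order in every library. The large fish values were 99.2, 79.8 and 107 CPM for miR-98, 87.8, 67.6 and 89.3 CPM for let-7h, and 36.2, 42.0 and 41.9 CPM for let-7j. The small fish values were 76.3, 86.9 and 90.3 CPM for miR-98, 66.1, 76.4 and 80.8 CPM for let-7h, and 35.6, 43.4 and 36.2 CPM for let-7j, and for all 3 the groups overlapped.

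**Figure D1:**
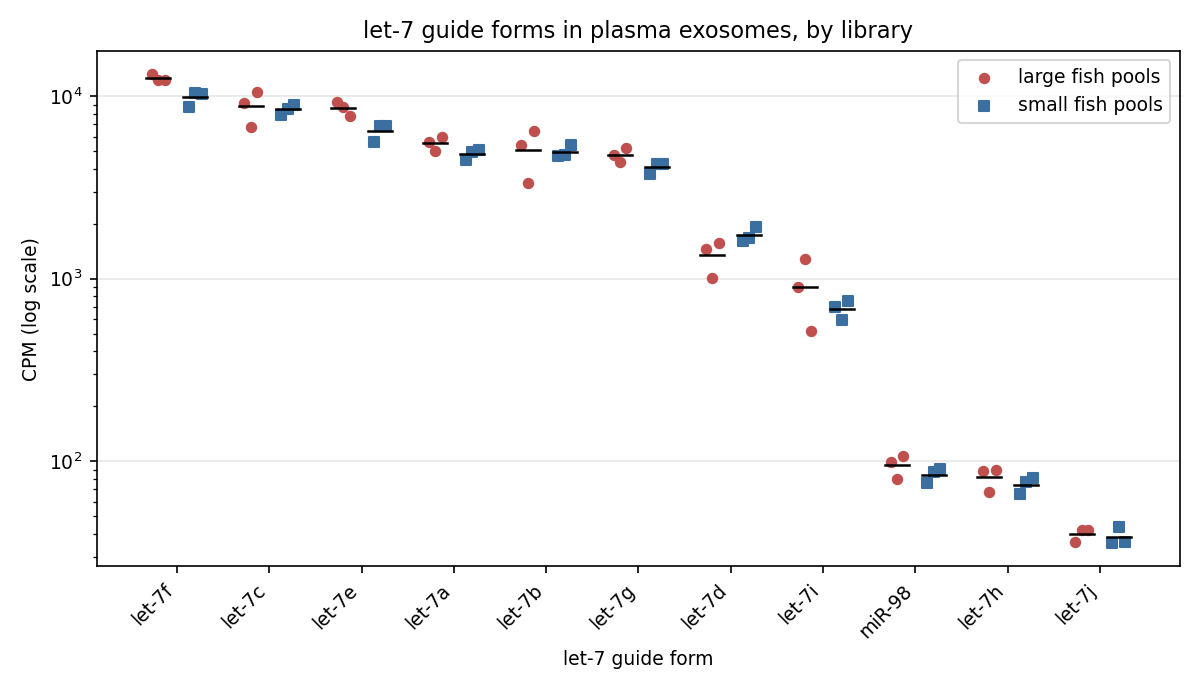
CPM of the 11 let-7 guide forms (log axis) in each library, with circles for the 3 large fish pools, squares for the 3 small fish pools and bars for group means. The order runs from let-7f to let-7j, the groups are apart for let-7f, let-7e, let-7g and let-7d, and on this axis let-7i spreads most between the large fish pools.

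Many of the other guide entries followed a form closely in every library. Of 52 further guide entries, 28 had a mean of at least 100 CPM, and in 21 of those the log2 ratio to the form nearest in sequence varied by an SD under 0.05 over the 6 libraries. Of the 9 entries that differ from let-7a by 1 substitution, 7 were listed at 70.2% to 87.6% of the let-7a value in every library, with an SD of the log2 ratio of 0.025 to 0.034. One of them is the human let-7e sequence, which is unlike that of fish let-7e and differs from let-7a by T9G.
hsa-let-7e-5p: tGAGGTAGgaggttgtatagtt
It was listed at 3983, 3689 and 4451 CPM in the large fish and 3146, 3548 and 3558 CPM in the small fish, which was 70.2% to 74.5% of let-7a. Its log2 ratio to let-7g varied less (SD 0.012) than that to let-7a (SD 0.034). Another of the 7 is the zebrafish let-7g sequence, at 83.7% to 87.6% of let-7a. Reads counted under both names and reads of a separate let-7g cannot be told apart in these values. The same limit holds for let-7h, which was listed at 83.1% to 89.4% of miR-98, with an SD of the log2 ratio of 0.040.

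Around let-7f the ratios were less steady and some shares much smaller. Of the 7 entries 1 substitution from let-7f, 0 kept their ratio within an SD of 0.05. For 3 of them, listed at only 4.13% to 5.15% of let-7f, the SD was 0.054 to 0.061, just over that limit. These were abu-let-7f (A17G), ssa-let-7f-5p (A19T) and tch-let-7a-5p (G2A), a tree shrew entry that is named let-7a but has the let-7f bases and a changed seed.
tch-let-7a-5p: tAAGGTAGtagattgtatagtt
It was listed at 581, 509 and 528 CPM in the large fish and 382, 465 and 484 CPM in the small fish. The fish let-7e sequence is also 1 base from let-7f (T16A), yet it was listed at 63.4% to 71.3% of let-7f, with an SD of the log2 ratio of 0.071. The mouse sequence mmu-let-7g-5p, which is 1 base from zebrafish let-7g (T18C), was listed at 1.95% to 2.63% of the zebrafish form.

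How steadily pairs of forms kept their ratio is a description over 6 libraries, with no test, and includes reads shared between names. The steadiest pairs were let-7a with let-7g (SD of the log2 ratio 0.025), let-7h with miR-98 (0.040), let-7a with miR-98 (0.064) and let-7e with let-7f (0.071). The SD of let-7b with let-7c was 0.116. The form let-7i was the least steady, with an SD of 0.518 against let-7a and 0.743 against let-7b, followed by let-7d with 0.348 against let-7a.

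**Figure D2:**
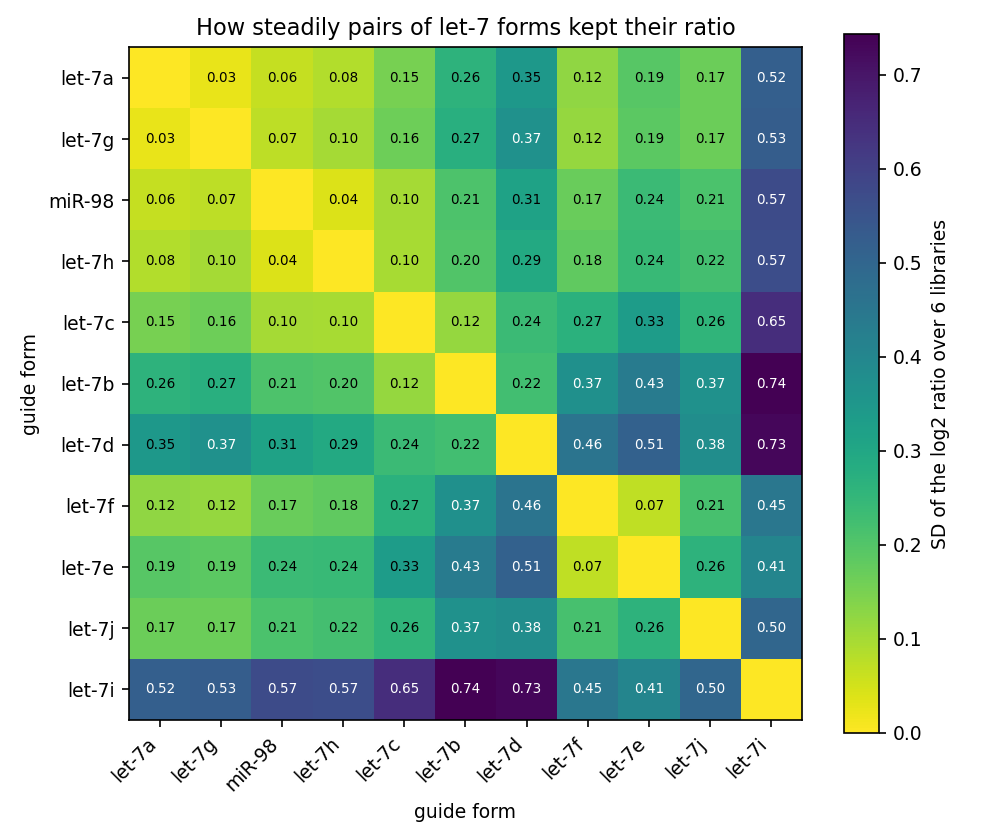
SD over the 6 libraries of the log2 ratio between each pair of let-7 guide forms, with both axes listing the forms and the colour and number giving the SD. Small values mark pairs that kept their ratio, such as let-7a with let-7g (0.03 in the plot), and the row of let-7i holds the largest values, up to 0.74.

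Large and small fish were compared to ask whether the let-7 entries in plasma exosomes differed with growth. None of the 62 guide entries tested passed in limma, and the entries that did pass were all passenger strands, higher in the large fish. At an unadjusted p under 0.05, 4 guide entries were higher and 1 was lower by limma. That count was 26 higher in both forms of edgeR's quasi-likelihood test, 9 in its exact test and 29 in DESeq2, with 0 lower. Over all 1807 entries, in either direction, it was 587 by limma, 553 and 581 by the quasi-likelihood forms, 540 by the exact test and 582 by DESeq2. After adjustment DESeq2 called 9 guide entries higher, while edgeR's 3 tests called 0. The tools differ in scaling as well as in test. Limma took CPM unscaled, edgeR used trimmed mean (TMM) factors and DESeq2 its own size factors. The test was limma on log2(CPM + 1), fitted over the 1807 entries that reached 1 CPM in 3 or more libraries, and a call required a fold of 1.5 or more together with a Benjamini-Hochberg adjusted p no higher than 0.05. Of the 111 members, 95 (68 sets of values) passed that filter and 16 did not, and 3 were above 0 in fewer than 3 libraries. Of the 95, 5 were called higher in large fish, which was 5.26%, beside 2.82% of all entries tested. These 5 entries hold 2 sets of values. Of the 95, 0 were called lower, beside 14.2% of all entries, and 17.0% of all entries were called in either direction. At an unadjusted p under 0.05, 13 members (13.7%) were higher and 1 (1.05%) was lower by limma, beside 7.97% and 24.5% of all entries. Limma after TMM scaling had 35 members under that p in either direction, against 14 without it. Over all entries these counts were 574 and 587. The other tools run, edgeR's quasi-likelihood test in both forms, its exact test and DESeq2, called 0 members lower. Before adjustment, 35, 35, 19 and 39 members in that order were higher at p under 0.05, and 0 were lower. As 0 were lower, these are also the counts of the 95 members in either direction. They stand beside 553, 581, 540 and 582 of all 1807 entries in either direction. The share of all entries that was higher at that p is not given for these tools. The quasi-likelihood test called 0 members higher, beside 1.33% of all entries, and its bias-corrected form called 6 (6.32%), beside 5.26%. The exact test called 9 (9.47%), beside 8.02%, and DESeq2 called 15 (18.5% of the 81 members with an adjusted p), beside 12.6%. Limma called 15 members higher (15.8%) after quantile normalization, beside 7.64% of all entries, and with identical entries counted once it called 2 of 68 sets (2.94%), beside 3.1%. The counts of the bias-corrected form, the exact test, DESeq2 and quantile normalization include sha-miR-352, described below as a miR-1388 entry.

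The calls, like those of the whole table, depended on which libraries were kept. No member was called after leaving out L1, L2, S1, S2 or S3 in turn. Calls over all entries also fell, from 308 to 7, 1, 177, 178 and 26 in that order. Without L3 the same 5 members were called higher and 2 were called lower, cin-let-7d-5p and ssa-let-7a-3-3p, beside 365 of all entries called. The fold changes lay above those of the table as a whole. The median log2 fold change, large minus small, was 0.23 over the 95 members, with 72 above 0 and 23 below, and -0.26 over all 1807 entries. It was 0.24 over the 62 guide entries and 0.15 over the 31 passenger entries. The 95 members hold 68 sets of values, the 62 guides 48 and the 31 passengers 18, and differing sets can still share reads. Guide entries that kept a steady ratio to let-7a and let-7g had nearly equal fold changes, as in hme-let-7 (0.23), spu-let-7 (0.23) and hsa-let-7e-5p (0.24). Their fold changes lay nearer to that of let-7g (0.23) than to that of let-7a (0.20), and each kept a steadier ratio to let-7g. These medians and counts of signs are therefore not counts of separate miRNAs. With trimmed mean (TMM) scaling the median over all entries shifted to -0.05 and that of the members to 0.49, and with quantile normalization they were 0.09 and 0.42.

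Among guides, let-7e and let-7f had the largest positive differences of the 11 forms. The log2 fold change was 0.42 (SE 0.18, 95% interval -0.01 to 0.85, limma adjusted p = 0.166) for let-7e and 0.35 (SE 0.17, interval -0.05 to 0.76, adjusted p = 0.195) for let-7f. As means ± SD of 3 pools, let-7e was 8592 ± 784 CPM against 6442 ± 699.6 CPM, and let-7f was 12548 ± 565 CPM against 9842 ± 929.7 CPM. Neither passed by limma. DESeq2 called both higher, and limma after quantile normalization called let-7e. For let-7g the log2 fold change was 0.23 (limma adjusted p = 0.418), for let-7a 0.20 (adjusted p = 0.490) and for let-7i 0.31 with an interval from -0.49 to 1.11 (adjusted p = 0.581). The forms miR-98 (0.17), let-7h (0.12), let-7j (0.06), let-7c (0.04) and let-7b (-0.02) had adjusted p-values from 0.637 to 0.983 in limma.

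The let-7d form went the other way, with a log2 fold change of -0.38 (SE 0.23, interval -0.92 to 0.15, limma adjusted p = 0.292). A sequence 1 base from it (G19T), listed under a sea squirt name, had the lowest fold change of the guide entries.
cin-let-7d-5p: tGAGGTAGttggttgtattgtt
It was listed at 557, 312 and 803 CPM in the large fish and at 817, 918 and 1032 CPM in the small fish, so the groups did not overlap. Its log2 fold change was -0.82 (SE 0.35, limma adjusted p = 0.152). The mammalian let-7d sequence is another one, which starts with A and lacks the change at base 10.
hsa-let-7d-5p: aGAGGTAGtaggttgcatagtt
It was rare and lay above without overlap, at 7.97, 8.62 and 8.29 CPM in the large fish and 4.94, 5.21 and 5.91 CPM in the small fish (log2 fold change 0.55, SE 0.22, limma adjusted p = 0.134). The 3 let-7d sequences thus had fold changes of both signs, and none of them passed in the reported limma test. DESeq2, and limma after quantile normalization, called hsa-let-7d-5p higher, and limma without L3 called cin-let-7d-5p lower.

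**Figure D3:**
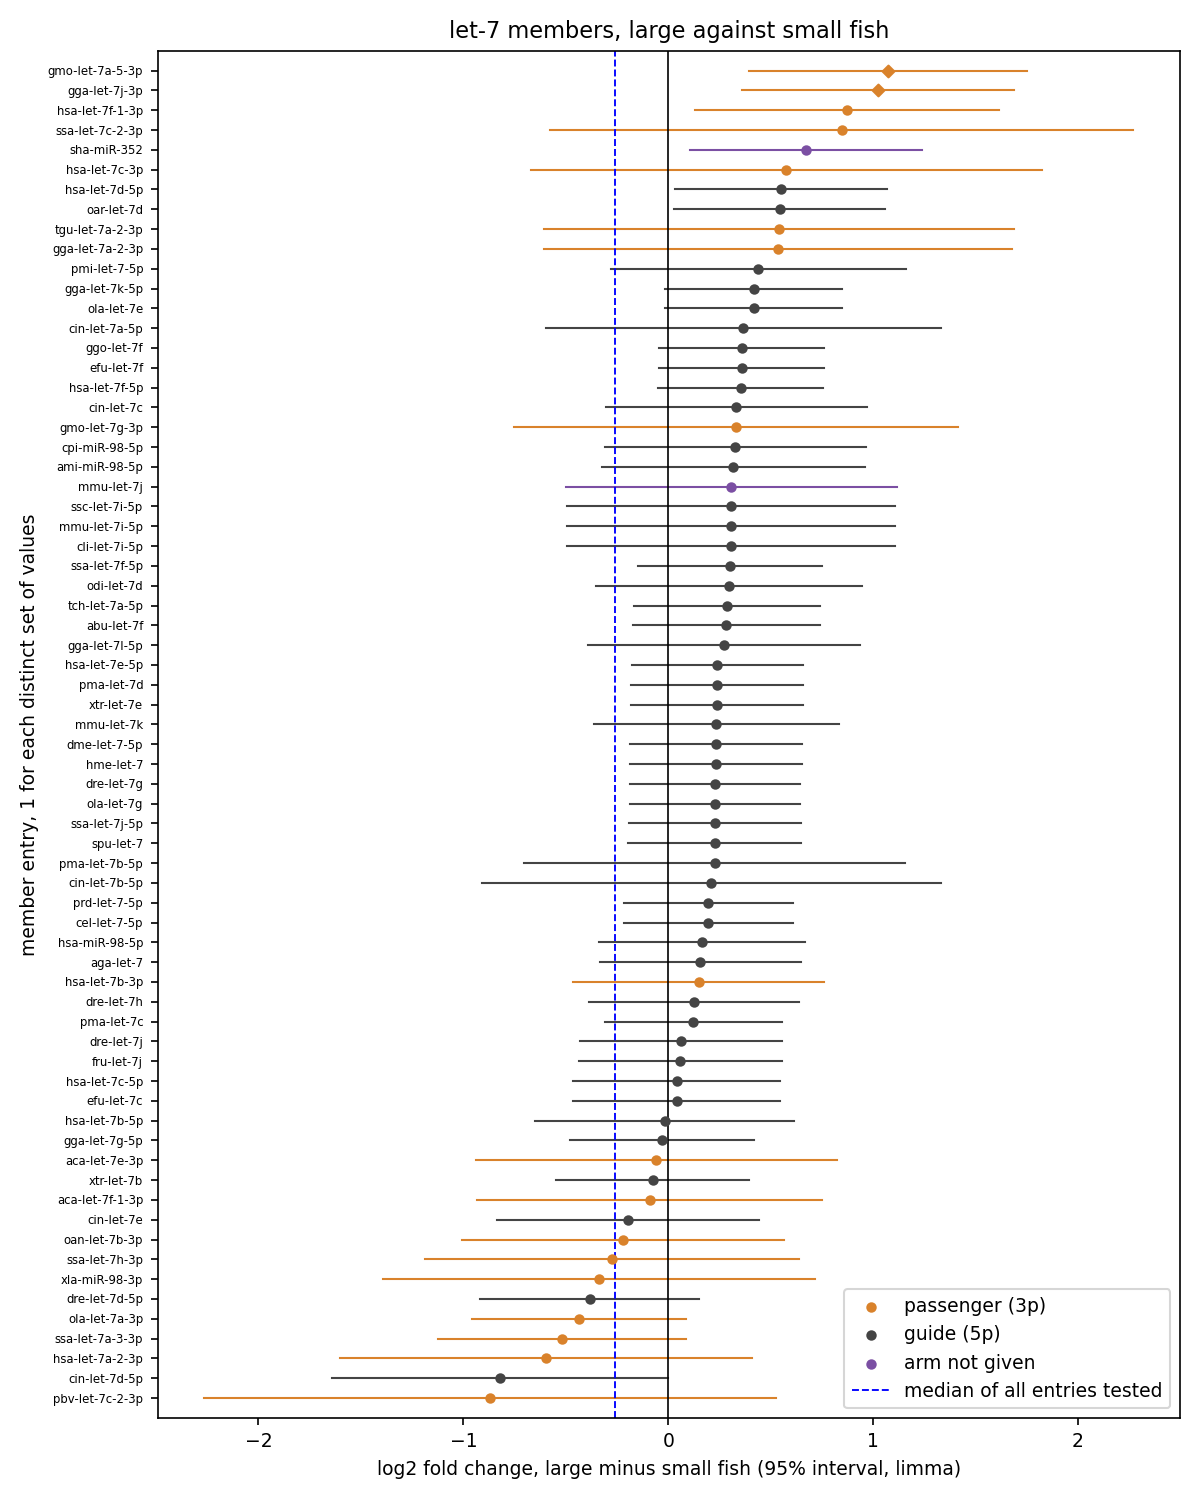
Log2 fold change, large minus small fish, with 95% limma intervals for the 68 sets of values among the tested members, 1 entry named for each. Diamonds mark the 2 called sets, both passengers, the dashed line is the median of all tested entries (-0.26), and most guide entries lie to its right, between 0 and 0.5.

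Counted without a test, 33 of the 95 members (34.7%) lay above in the large fish without overlap, beside 10.5% of all entries, and 3 (3.16%) lay below, beside 29.6% of all entries. In either direction these were 37.9% of the members and 40.1% of all entries. The 33 comprised 24 guide entries, 8 passenger entries and sha-miR-352, and the 3 were dre-let-7d-5p, cin-let-7d-5p and ola-let-7a-3p. Many of these share reads, and the 33 hold 23 sets of values. The 8 passenger entries hold 3 sets, those of gga-let-7j-3p, gmo-let-7a-5-3p and hsa-let-7f-1-3p, which are close in sequence.

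Ratios within a library do not depend on the scaling of libraries, so each form was also compared with let-7a. Of 10 forms, let-7d was the only one whose ratio did not overlap between the groups. It was listed at 25.9%, 20.2% and 26.3% of let-7a in the large fish and at 36.0%, 33.6% and 37.8% in the small fish. The difference in the log2 ratio was -0.58 (two-sided exact permutation p = 0.1, the smallest that 3 against 3 allows). Adjusted over the 10 forms by Benjamini-Hochberg, this exact p was 0.5. The number of forms without overlap was 2 without L1 or L2, 5 without L3, 4 without S2 and 1 without S1 or S3. Leaving out a library can only keep or raise this number, as fewer pools are left to overlap. Over all 1807 entries, 38.5% had a ratio to let-7a that was lower in large fish without overlap, and 5.53% one that was higher. The let-7f level was 236%, 243% and 205% of let-7a in the large fish and 197%, 210% and 204% in the small fish, which overlapped through L3. The let-7i level ranged from 8.65% of let-7a in L3 to 25.7% in L2, and the small fish lay between these, at 15.8%, 12.0% and 14.9%. In L2 the ratios of let-7b (66.8%), let-7c (136%) and let-7d were each the lowest of the 6 libraries.

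**Figure D4:**
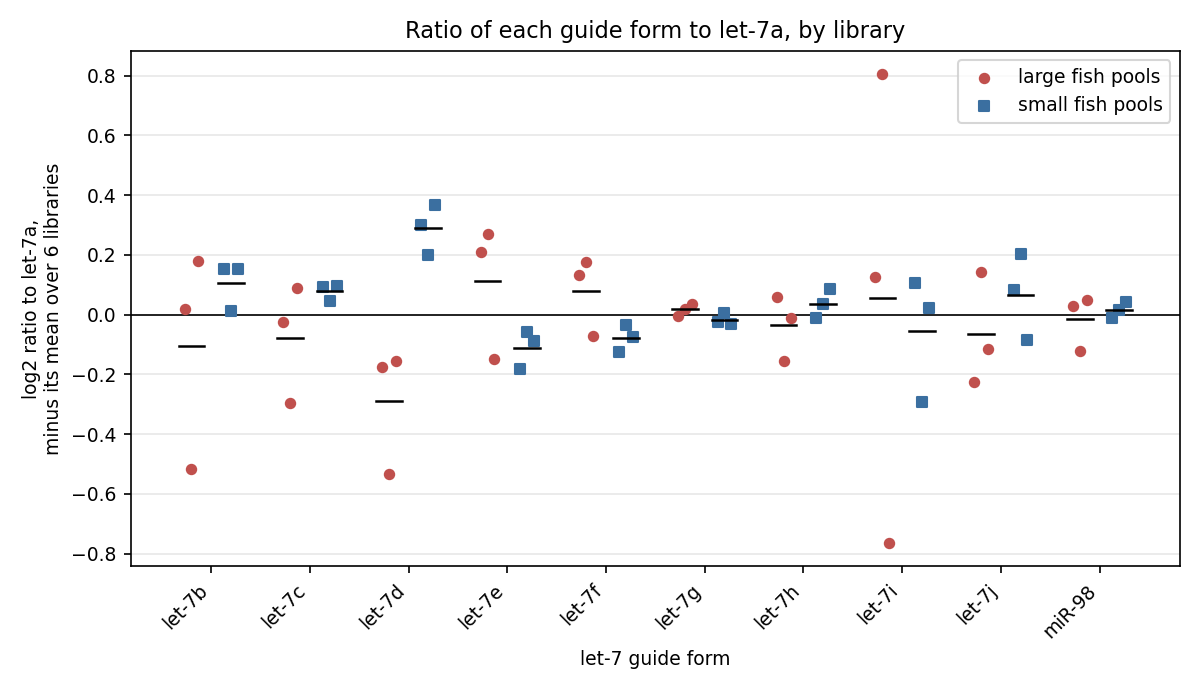
Log2 ratio of each guide form to let-7a in each library, minus its mean over the 6 libraries, with circles for large fish pools, squares for small fish pools and bars for group means. The groups are apart for let-7d, let-7g and miR-98 stay close to 0, and let-7i ranges widest because of L2 and L3.

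The passenger strands are shown next, since the called entries are among them and their seeds differ from the guides and from each other. The capitals mark bases 2 to 8.
ola-let-7a-3p: cTATACAActtactgtctttc
hsa-let-7b-3p: cTATACAAcctactgccttccc
ssa-let-7h-3p: cTATACAActtactgccttcct
hsa-let-7f-1-3p: cTATACAAtctattgccttccc
gga-let-7j-3p: cTATACAGtctattgccttcct
gmo-let-7a-5-3p: cTATACAGtctattgccttccc
hsa-let-7c-3p: cTGTACAAccttctagctttcc
Of the 45 passenger entries, 15 share the bases TATACAA, 13 have TATACAG and 5 have TGTACAA. They were rarer than the main guides: 0 passenger entries had a mean of at least 1000 CPM and 2 had at least 100 CPM, while 27 members in all reached 1000 CPM.

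The entries shown for both called sets have the bases TATACAG. The chicken entry gga-let-7j-3p was listed at 39.3, 53.4 and 32.7 CPM in the large fish and 23.3, 21.5 and 15.1 CPM in the small fish. Every large fish pool lay above every small fish pool, and the log2 fold change was 1.02 (SE 0.28, 95% interval 0.36 to 1.69, limma adjusted p = 0.0479). The same values are listed under the turtle, alligator and cobra names cpi-let-7a-4-3p, ami-let-7a-4-3p and oha-let-7a-3-3p, so the names put this strand with both let-7j and let-7a, and its guide in the carp is not given by the table. The cod entry gmo-let-7a-5-3p ends in another base and was listed at 30.7, 50.5 and 30.4 CPM in the large fish and 19.7, 17.4 and 13.4 CPM in the small fish. It had a log2 fold change of 1.07 (SE 0.29, interval 0.39 to 1.75, limma adjusted p = 0.0451), and as the 2 sequences differ at their last base, the sets are not independent. Both values lie close to the threshold.

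The most abundant passenger, ola-let-7a-3p, differed in the other direction. It was listed at 119, 124 and 175 CPM in the large fish and 185, 184 and 189.6 CPM in the small fish, and the small fish pools lay within a narrow band above all large fish pools. Its log2 fold change was -0.44 (SE 0.22, interval -0.96 to 0.09), which did not pass (limma adjusted p = 0.213). The longer entry ssa-let-7a-3-3p had -0.52 (adjusted p = 0.203). The ratio of gga-let-7j-3p to ola-let-7a-3p, chosen after the values had been seen, was 32.9%, 43.1% and 18.6% in the large fish and 12.6%, 11.7% and 7.94% in the small fish, without overlap.

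The other passengers did not pass in limma. The strand hsa-let-7f-1-3p was listed at 3.604, 6.004 and 3.683 CPM in the large fish and 1.94, 2.78 and 1.21 CPM in the small fish (log2 fold change 0.87, SE 0.32, limma adjusted p = 0.1003), without overlap. It was called higher, under all 3 of its names, by edgeR's exact test (adjusted p = 0.0472) and by limma after quantile normalization (adjusted p = 0.0446). Its sequence differs from gmo-let-7a-5-3p only at the last base shown in capitals. Reads may be shared, so it is not shown to be independent of the called sets. The strand hsa-let-7c-3p was listed at 21.1, 70.1 and 20.4 CPM in the large fish and 23.2, 12.9 and 29.0 CPM in the small fish, so its log2 fold change of 0.58 (SE 0.53, limma adjusted p = 0.503) rested on L2 and was 0.0067 without it. The strands hsa-let-7b-3p (0.15) and ssa-let-7h-3p (-0.27) were listed between 7.21 and 21.5 CPM with overlapping groups. The let-7i passenger mmu-let-7i-3p lay at 0.299 to 1.04 CPM in all libraries, under the filter.

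**Figure D5:**
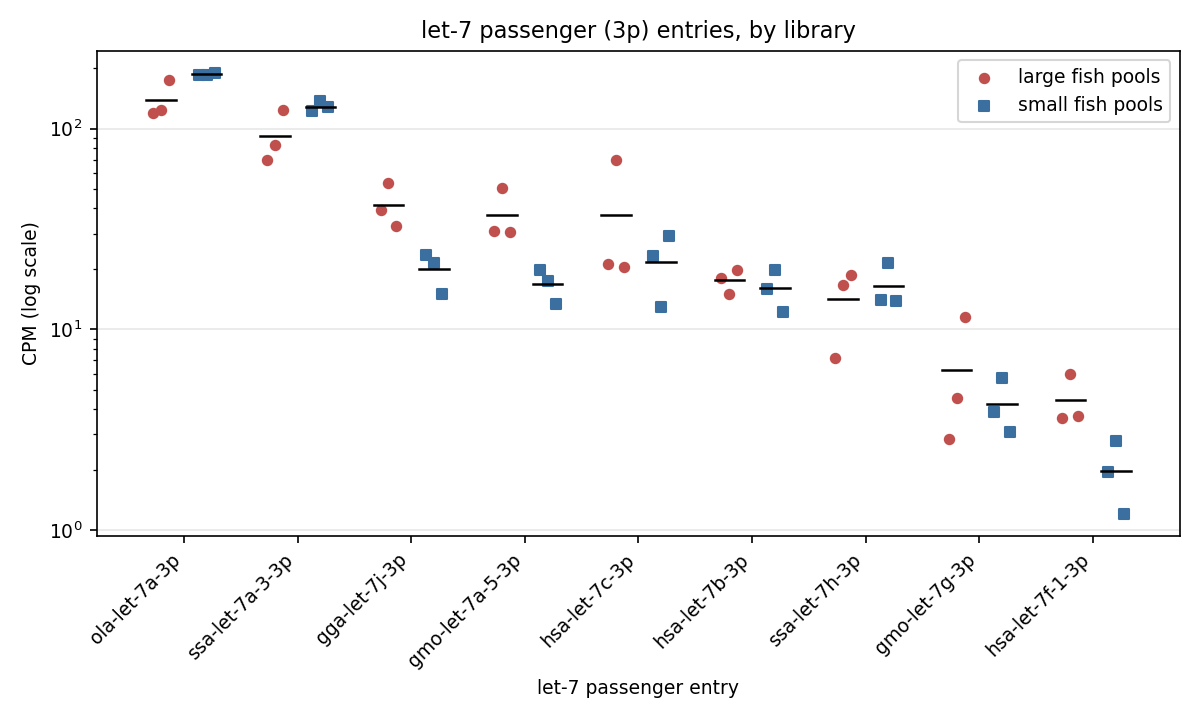
CPM of 9 let-7 passenger entries (log axis) in each library, with circles for the 3 large fish pools, squares for the 3 small fish pools and bars for group means. The large fish pools lie above for gga-let-7j-3p, gmo-let-7a-5-3p and hsa-let-7f-1-3p and below for ola-let-7a-3p, and L2 stands far above the rest for hsa-let-7c-3p.

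The ratio of passenger to guide was compared for 9 letters as named, with the guide taken by sequence. For let-7a it was 2.13%, 2.47% and 2.93% in the large fish and 4.16%, 3.71% and 3.74% in the small fish, lower without overlap (difference in the log2 ratio -0.63, two-sided exact permutation p = 0.1). For let-7j it was 108%, 127% and 78.0% in the large fish and 65.5%, 49.6% and 41.6% in the small fish. It was higher without overlap (difference 0.96, exact p = 0.1), with gga-let-7j-3p over the zebrafish let-7j guide. This pairing rests on the letter in the names alone, as do those of the other letters. As printed, the start of gga-let-7j-3p can pair with let-7a and let-7f, counting G with T, and less fully with that let-7j guide. Whether these strands come from the same hairpin is not shown. Adjusted over the 9 letters by Benjamini-Hochberg, the exact p was 0.45 for both let-7a and let-7j. The other 7 letters overlapped in the log2 ratio with 1 CPM added to both values. Without that addition the let-7f passenger was barely apart. It was 0.0273%, 0.0492% and 0.0301% of its guide in the large fish and 0.0222%, 0.0267% and 0.0117% in the small fish. With its alternative guides, the let-7j passenger was 0.701%, 1.06% and 0.547% of let-7a in the large fish and 0.525%, 0.433% and 0.297% in the small fish, without overlap. It was 0.297%, 0.438% and 0.2669% of let-7f in the large fish and 0.2661%, 0.207% and 0.146% in the small fish. The groups were thus barely apart for let-7f, and they overlapped in the log2 ratio with 1 CPM added to both values. Among 118 miRNA names with both arms, 16.1% had a higher and 11.9% a lower passenger ratio in large fish without overlap.

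The 2 entries named miR-352 are unlike each other.
sha-miR-352: aTCTCAGGtttgtcagcccat
rno-miR-352: aGAGTAGTaggttgcatagta
The Tasmanian devil entry sha-miR-352 has no let-7 seed. It differs by 1 base edit from cpi-miR-1388-3p and its values equal those of ipu-miR-1388 and ola-miR-1388-3p, so by sequence and value it is a miR-1388 entry. It was listed at 589, 692 and 555 CPM in the large fish and 439, 287 and 442 CPM in the small fish, without overlap (log2 fold change 0.67, SE 0.24, limma adjusted p = 0.0973), and TMM scaling, quantile normalization, DESeq2, edgeR's exact test and its bias-corrected test called it higher. The rat entry rno-miR-352 lies 2 edits from hsa-let-7d-5p and was listed at 0.434 to 1.17 CPM, under the filter.

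The mouse entry mmu-let-7j, whose arm the name does not give, differs from the let-7 seed at its last base and was listed at 890.5, 1284 and 509 CPM in the large fish and 697, 589 and 748 CPM in the small fish, close to let-7i in each library.

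Outside the named members, 3 entries carry the bases GAGGTAG at positions 2 to 8. They were hco-miR-5991 and mml-miR-6134, with means of 4.21 and 2.88 CPM, and hsa-miR-4500, with 0.0874 CPM, and none was called by limma (adjusted p = 0.784 and 0.343, hsa-miR-4500 being under the filter). In vertebrates some let-7 genes lie in clusters with miR-99, miR-100 and miR-125. Of 95 entries of these families, 85 were tested and 0 were called in either direction by limma, with a median log2 fold change of -0.21. At an unadjusted p under 0.05, 0 were higher and 7 lower, and edgeR's 3 tests and DESeq2 also called 0.

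Markers of cells that release exosomes, each family given by its entry with the highest mean, differed between the libraries, and their part in the let-7 values was not tested. Of the leukocyte markers, the entries for miR-142, miR-223 and miR-150 each lay higher in the large fish without overlap (3 of 3), with miR-150 at 4050 to 5273 CPM against 832 to 1422 CPM. The muscle entries for miR-1, miR-133 and miR-206 lay lower without overlap (3 of 3), with miR-206 at 2031 to 5260.5 CPM against 8391 to 13387 CPM. The entries for erythrocyte miR-451 and miR-144, endothelial miR-126 and hepatocyte miR-122 overlapped, and no marker was at 0. Less of 1 cell type and less RNA per cell or vesicle cannot be told apart in pooled plasma.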

How the data were processed

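Exosomes were isolated by ultracentrifugation, and 3 ng of RNA per pool went into libraries with molecular identifiers. The authors kept reads of 15 to 35 nt, used Bowtie to discard rRNA, tRNA and other small RNA classes, matched what remained to miRBase and to the RefSeq carp genome (HZGC01), and counted each identifier once. The miRBase release is not given in the sources used here. The deposited CPM values are counts of each entry per 1000000 miRNA counts, with no length scaling, and a read can count under several names. The fields for hairpin and genome position are empty for the known entries. Newly predicted miRNAs and tissue libraries were not analysed here.

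Whole counts were recovered from the CPM steps (100% of values whole within 0.02 count in each library). Python 3.11.15 and R 4.3.3 were used. Entries that reached 1 CPM in 3 or more libraries were tested with limma 3.58.1 (trend) on log2(CPM + 1), which understates changes of low entries, adjusted over all 1807. Alternatives used edgeR 4.0.16 with TMM factors and DESeq2 1.42.0 with its size factors, both on recovered counts. Within-library ratios were compared with exact permutation tests of 3 against 3. Pools are separate fish, so p-values rest on the spread between pools. In limma this spread is drawn toward that of entries at similar levels. It is taken as equal in both groups, although pool size differed. On simulated data for large against small fish over 1755 entries, limma recovered 11% of 2-fold and 85% of 4-fold changes, with 4 false among 100 calls. The simulation drew entries independently, without shared reads, and placed changes only in the more abundant entries. Its false calls need not hold for the real data.

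The members and lists were chosen with earlier results of these data known. Named entries were, for each letter and arm, the zebrafish entry or else the one with the highest mean, every called member, and those without overlap that the text lists. As no zebrafish let-7a guide is listed, the 11 forms were taken by mature sequence instead, a choice made after the data were seen, as were the human and other entries set beside them. No genome was used, so no coordinates are given.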

Additional observations from a re-analysis of the deposited data

How the results depend on the processing

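The count of 5 members called higher was 1 with a pseudocount of 0.1 and with limma without trend, 0 with a pseudocount of 10, with no filter and with edgeR's quasi-likelihood test, 15 with quantile normalization and with DESeq2, 9 with edgeR's exact test and 2 with identical entries counted once. A filter of 10 CPM gave 5, TMM scaling 6, and the bias-corrected quasi-likelihood test, added after the data were seen, 6. All entries called higher moved too, from 51 to 138 with quantile normalization, 184 with DESeq2, 145 with the exact test, 95 with TMM scaling and with the bias-corrected test, 24 with the quasi-likelihood test and with no filter, 43 and 41 with the pseudocounts, 40 without trend and 30 with identical entries counted once. Leaving out 1 library gave 0 to 5 members higher and 0 to 2 lower, and 1 to 365 of all entries called, against 308. All entries called were 46 with the quasi-likelihood test and 173 with identical entries counted once. Replicate numbers are shared between the groups, but same-numbered libraries did not deviate together (correlations -0.05, -0.06 and 0.02). With the replicate block, 0 members were called higher (9 members of either direction at an unadjusted p under 0.05). In 5 guide forms the ratio to let-7a kept 1 direction in every same-numbered pair. That is a looser criterion than no overlap between the groups, which 1 form met, so these counts are not alike. The count of 1 guide form was 0 with the highest-mean entry of each name and 1 to 5 on leaving out 1 library, which can only keep or raise it. The count of 2 passenger letters, with let-7j paired by name only, was 1 with the highest-mean entry and 3 with a pseudocount of 0.1 or 10. It was 3 without L1, L2 or S2 and 2 without L3, S1 or S3. By the looser criterion of the replicate block it was 3.

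Of 34 named members, 21 kept their direction in every setting and 13 did not. These count names, and several names hold the same or nearly the same values, such as those of the gga-let-7j-3p set. None of those 13 was called in the reported test, and of them DESeq2 called hsa-let-7f-5p higher. The set of gga-let-7j-3p lost its call in 11 of 18 other settings, with adjusted p from 0.0018 to 0.141 and log2 fold changes from 0.78 to 1.36, and gmo-let-7a-5-3p in 9 of 19. The log2 fold change of hsa-let-7b-5p turned to 0.23 with TMM, 0.16 with quantile normalization, 0.27 with all 3 edgeR tests and 0.32 with DESeq2. That of aca-let-7e-3p turned to 0.13 with TMM, 0.41 with quantile normalization, 0.27 with edgeR's quasi-likelihood and exact tests, 0.29 with the bias-corrected test (0.285) and 0.30 with DESeq2 (0.303). That of ssa-let-7h-3p turned to 0.07 with quantile normalization (0.0676) and DESeq2 (0.0742), 0.024 with the quasi-likelihood (0.0239) and exact (0.0241) tests, and 0.028 with the bias-corrected test (0.0279). With quantile normalization hsa-let-7f-5p turned to -0.0045, ola-let-7a-3p to 0.20 and xla-miR-98-3p to 0.10. The cause was not tested in these cases. Leaving out 1 library also turned signs, over ranges of log2 fold change from -0.22 to 0.26 for hsa-let-7b-5p, -0.10 to 0.22 for hsa-let-7c-5p and efu-let-7c, -0.0004 to 0.66 for mmu-let-7i-5p, -0.0005 to 0.66 for cli-let-7i-5p, -0.0032 to 0.66 for mmu-let-7j, -0.02 (-0.0199) to 0.31 for hsa-let-7b-3p, -0.40 to 0.12 for aca-let-7e-3p, -0.15 to 0.70 for gmo-let-7g-3p, -0.51 to 0.12 for ssa-let-7h-3p and -0.59 to 0.12 for xla-miR-98-3p. The let-7i values reach 0 without L2. Depth limits the entries under about 1 CPM, such as rno-miR-352 and the let-7i passenger.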
